A study of Mus musculus with 2 samples.

Results

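The unassigned progenitors at or above the median of a first principal component are 676 cells from 1 single-cell RNA sequencing library of mouse fetal liver. The deposited table holds 3357 cells, of which 2453 belong to this CITE-seq library, and 2136 of those carry no pool name and are listed as unknown. A cell was kept when its 4 adult globin transcripts (Hba-a1, Hba-a2, Hbb-bs and Hbb-bt) summed to under 20 per 10000, when it held under 5 unique molecular identifiers (UMIs, the tags by which single transcripts are counted) of Mpo, and when it held under 3 UMIs of Ly86, Csf1r and Ccr2 together. Of the 2136 cells, 784 did not meet these limits, 656 of them through globin, 68 through Mpo and 100 through the monocyte genes, with 39 past more than 1 limit. The 1352 cells that met them were split at the median of the component that the authors deposited (PC1, called corrected in the file header), which lay at -4.65. The members were thus chosen by measured values, namely the globin, Mpo and monocyte transcripts and PC1, and differences that follow from these are given as description. The cells at or above the median are called the upper set here, and the 676 below it the lower set. The lowest PC1 in the upper set was -4.65 and the highest in the lower set was -4.66, so no gap separated them. The highest globin sum in the upper set was 19.2 per 10000, and the lowest among cells above the cut that were left out by globin alone was 35.0 per 10000.

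All cells came from C57BL/6 embryos at E14.5 and are labelled low in the surface proteins CD71, the product of the transferrin receptor gene Tfrc, and CD24, the product of Cd24a. In the CITE-seq library, which the design text calls lineage-depleted, cells were stained with barcoded antibodies against CD117 (the receptor encoded by Kit) and CD71, and 122 of its cells are named CS BFUE and 195 CS CFUE. The hashed library held 4 isolations named FACS BFU-E (233 cells), PE-low (208), FACS CFU-E (167) and PE-high (294), obtained by cell sorting or a magnet. Although low CD71 and CD24 is the label of all cells, a UMI of Cd24a was found in 100% of FACS CFU-E and 58.8% of FACS BFU-E cells. For Tfrc these shares were 97.6 and 73.8%. The transcripts thus differed between pools under the same label, and surface protein was not compared here. What PE and CS stand for, how cells were given their names, and whether the sequenced cells had been grown with dexamethasone (100 uM, 10 days) or methanol as the labels describe, are not stated in the labels. Each set of cells is therefore 1 sample, no difference below has a replicate check, and intervals cover counting error only. No cell barcode was shared between the libraries.

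Red cells form through a series of committed progenitors. The burst-forming unit-erythroid (BFU-E) is the earlier one, divides many times and depends on the Kit receptor, while the colony-forming unit-erythroid (CFU-E) follows it, depends on erythropoietin and starts to make the proteins of iron uptake, heme synthesis and the red cell membrane. In the fetal liver Kit and Myb mark the earlier end while Tfrc and Cd24a mark the later one. The antibody tags that stood for the surface proteins in the CITE-seq library are shown because they define this library, and their counts were not used here.

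CD117 tag: TGCATGTCATCGGTG
CD71 tag: ACCGACCAGTAGACA

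The upper set held 20717864 UMIs (median 30580 per cell, 7163 to 49841), close to the 20758545 of the lower set (median 30085). The median number of genes detected per cell in the upper set was 4860. CS BFUE cells had a median of 23449 UMIs and CS CFUE cells 37589. UMIs of a gene were summed over a set and scaled to UMIs per 1000000 (CPM). Genes were compared where either set of a pair reached 50 CPM with a UMI in 10% of its cells or more. A gene is said to lie past 1.5-fold where the levels differed by that ratio, which is a size and not a test.

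On PC1 the upper set covered the stretch between the named late pool and the named early pool of its library. Its cells ran from -4.65 to 44.2 with a median of 0.0122 and quartiles of -2.84 and 2.85, while the lower set ran from -10.6 to -4.66 with a median of -6.78. The CS BFUE median was 11.7, and 67 of the 676 cells (9.91%) lay at or above it. The CS CFUE median was -5.59, below every cell of the upper set, and 88 cells (13.0%) lay within the CS CFUE quartiles. The bulk of the upper set thus sat above the middle of the late pool and below the middle of the early pool.

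The position of the cut can be read from the named pools. All 122 CS BFUE cells lay at or above it (97.0 to 100%, exact Clopper-Pearson interval), and so did all 233 FACS BFU-E cells and 202 of 208 PE-low cells (97.1%, 93.8 to 98.9%). Of the late pools, 65 of 195 CS CFUE cells (33.3%, 26.8 to 40.4%), 105 of 294 PE-high cells (35.7%, 30.2 to 41.5%) and 10 of 167 FACS CFU-E cells (5.99%, 2.91 to 10.7%) lay above it. The upper set therefore spans the range that early pools fill and that part of CS CFUE and PE-high also enters. The limits left out 135 unassigned cells above the cut.

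**Figure D1:**
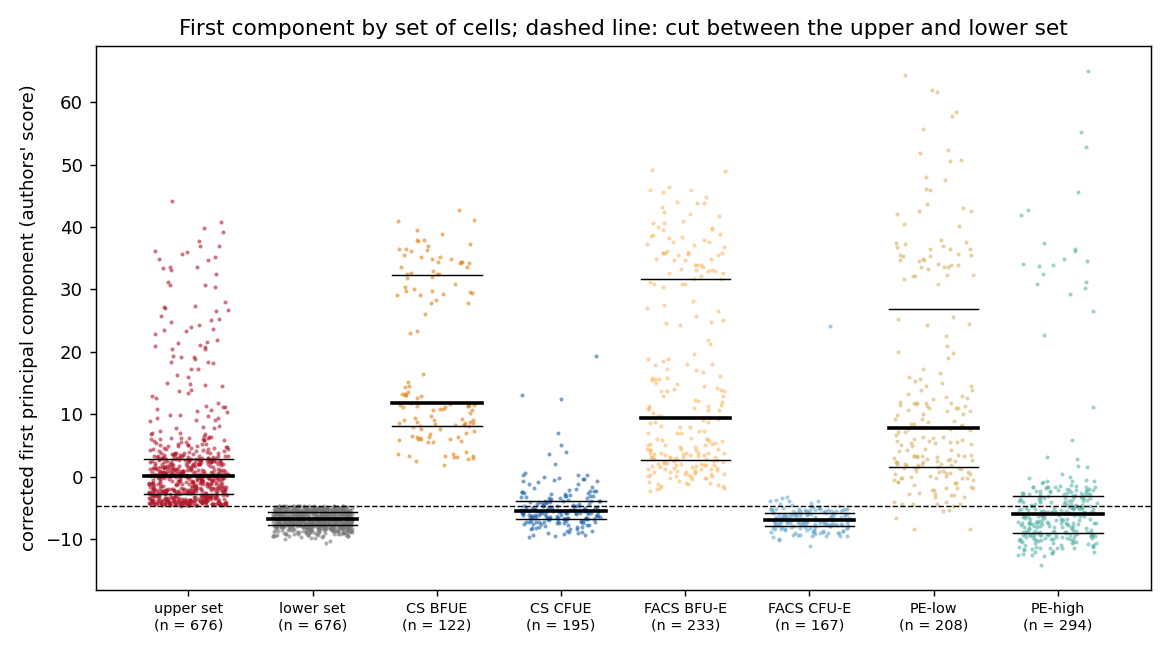
Corrected first principal component (the authors' score, no unit) of each cell in the upper set, the lower set and the 6 named pools; the thick bar is the median and the thin bars are the quartiles. The upper set has its median at 0.0122, between CS CFUE at -5.59 and CS BFUE at 11.7, and CS BFUE is spread widely, with quartiles of 8.03 and 32.3.

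Levels of the 4 marker genes named for this set lay between those of the same pools. PC1, which chose the members, is built from gene levels, so this is a description and no second placement. Kit stood at 97.0 CPM in the upper set (92.8 to 101, exact Poisson interval), against 45.9 in the lower set (43.0 to 48.9). CS BFUE held 119 CPM of Kit and CS CFUE 70.8. Myb, a transcription factor of immature progenitors, stood at 236 CPM in the upper set (229 to 242) and 107 in the lower set (103 to 112), with 364 in CS BFUE and 163 in CS CFUE. For both genes the upper set lay above both late sets and below CS BFUE.

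Tfrc, which takes up iron-loaded transferrin, stood at 206 CPM in the upper set (200 to 212) and 291 in the lower set (283 to 298), with 58.6 in CS BFUE and 276 in CS CFUE. Cd24a stood at 193 CPM (187 to 199) against 341 (333 to 349), with 65.0 in CS BFUE and 294 in CS CFUE. The labels give an isolation by low CD71 and CD24, whose part in the levels of these 2 genes was not tested. A UMI of Kit was found in 85.1% of upper set cells (82.1 to 87.7%) and 66.4% of lower set cells, of Myb in 95.6 and 84.8%, of Tfrc in 93.9 and 99.7%, and of Cd24a in 89.8 and 100%. After each cell was thinned to 10000 UMIs, which left out 3 cells of the upper set and 1 of the lower set, the shares were 54.2 and 31.9% for Kit, and 79.5 and 91.9% for Tfrc. In the 48 cells described next, which hold markers of other cell types or no UMI of Klf1 and Gata1, Kit was found in 43.8% and Tfrc in 64.6%, at a median depth of 17571 UMIs.

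Most of the upper set held erythroid transcripts, and some cells held markers of other cell types. Klf1 and Gata1, transcription factors of erythroid progenitors, both had 0 UMIs in 35 cells of the upper set (5.18%, 3.63 to 7.13%) and in 0 cells of the lower set. Such cells are also found in the named early pools, at 34.4% of CS BFUE (26.1 to 43.6%), 26.6% of FACS BFU-E and 22.1% of PE-low, against 0 of 195 CS CFUE cells. At least 5 UMIs of marker genes of another cell type were found in 37 cells (5.47%, 3.88 to 7.47%), against 1 cell of the lower set. By type these were lymphoid cells' markers in 14, hepatocyte markers in 10, megakaryocyte and endothelium markers in 6 each, and mast cell or basophil markers in 3, with some cells counted under more than 1 type. Monocyte and macrophage markers, which the rule limits, reached 5 UMIs in 0 cells, a count that the rule largely sets. The 2 criteria together took out 48 cells, 11 of them only for lacking Klf1 and Gata1, and 628 (92.9%) remained. Results are given with and without these 48 cells where they matter, and this alternative was added after the values were seen.

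Most of these cells sat at the top of PC1. The 68 cells above 11.3 on PC1 included 32 of the cells with other markers and 34 of those without Klf1 and Gata1, 42 cells in all, and their median depth was 17640.5 UMIs, against 31471 in the other cells of the upper set. Endothelium-marker cells had a median PC1 of 34.2, lymphoid-marker cells 29.2 and megakaryocyte-marker cells 20.5. Hepatocyte-marker cells were spread from -0.338 to 25.2. A single cell held 5020 of the 6842 hepatocyte-marker UMIs of the upper set, with 0 UMIs of Klf1 and Gata1, and the next held 1010 with 7 of Klf1 and 5 of Gata1. Of 378 UMIs of Pf4, a platelet chemokine, 347 were in 1 cell. In 4 cells (chosen after the values were seen) the fibrillar collagen genes Col1a1, Col1a2 and Col3a1 summed to at least 20 UMIs. In the 48 cells a UMI of Hba-a1 was found in 35.4%. Over the whole of the upper set Hba-a1 was found in 60.1% of cells, against 97.2% of the lower set.

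**Figure D2:**
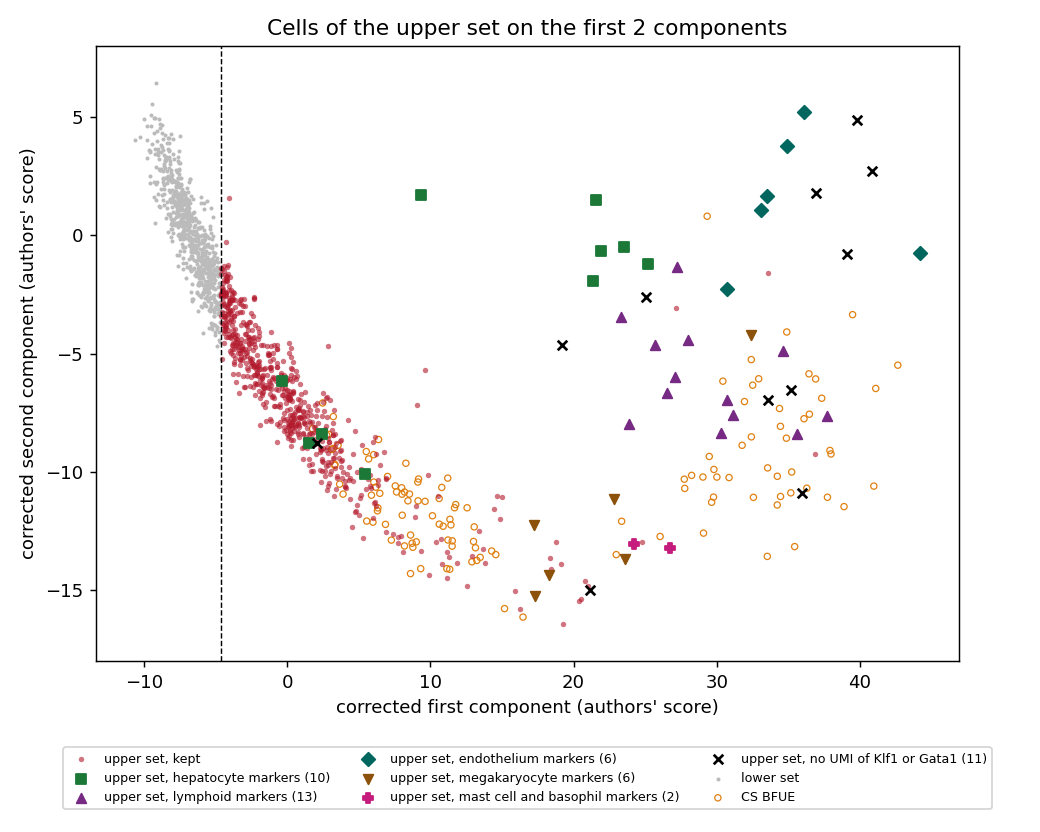
Corrected first and second principal components (the authors' scores, no unit) of the upper set, the lower set and CS BFUE, with the 48 cells marked by the criterion that took them out. Most of the 628 remaining cells continue the lower set without a gap toward CS BFUE, while 32 of the 37 cells with other markers lie among the 68 highest on the first component.

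Compared with the lower set, the upper set held more early progenitor transcripts and fewer transcripts of heme, membrane and late erythroid genes. The comparison covered 2883 genes, with 57 past 1.5-fold higher in the upper set (1.98%) and 79 lower (2.74%). The split used PC1, which is built from these genes, so the contrast describes the 2 sets and tests nothing. Genes that stood under 50 CPM in either set had to be higher in the remaining one to be compared, which was the case for 34 of the 57 and 41 of the 79. Without the 48 cells and the 1 lower set cell, the counts were 48 and 75, of which 45 and 73 were among the first.

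The highest ratios of the upper to the lower set belonged to Vim, Apoe and Cmtm7. Vim, which encodes the intermediate filament vimentin, stood at 61.3 CPM in the upper set and 1.11 in the lower set, a ratio of 55.4 (36.7 to 87.7). It was found in 32.4% of upper set cells and 2.96% of lower set cells. Without the 48 cells and the 1 lower set cell its level was 41.5 against 1.11 CPM, a log2 ratio of 5.22. It then no longer met the level filter. Apoe, which encodes apolipoprotein E, a carrier of lipids, stood at 150 against 9.88 CPM (15.2-fold, 13.2 to 17.6), and was at 131 CPM without those cells. Cmtm7, a membrane protein of the chemokine-like family, stood at 99.6 CPM in the upper set and 6.84 in the lower set (14.6-fold, 12.3 to 17.4) and was found in 77.7% of upper set cells and 17.2% of lower set cells. Without the 48 cells Cmtm7, with 91.6 CPM, had the highest ratio among the genes that met the level filter, which Vim did not.

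Ass1, the argininosuccinate synthase of arginine synthesis, stood at 70.3 CPM in the upper set and 9.73 in the lower set (7.22-fold, 6.23 to 8.41). Arhgdib stood at 110 against 15.6 CPM, and Ptprcap, a phosphoprotein bound to the phosphatase CD45, at 93.3 against 16.1 CPM. Fkbp11, a prolyl isomerase of the secretory pathway, stood at 55.4 against 10.9 CPM (5.06-fold, 4.39 to 5.86), and S100a10, a partner of annexin A2, at 126 against 25.1 CPM (5.0-fold, 4.55 to 5.51). Each of these 5 genes was spread over the upper set, with at most 1.92% of its UMIs in 1 cell for Ass1, Arhgdib, Ptprcap and Fkbp11 and 3.45% for S100a10. Tmsb4x, an actin-binding peptide, stood at 284 against 52.3 CPM, but at 120 CPM without the 48 cells.

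The hepatocyte genes Alb, Apoa2 and Afp were also among the 12 highest, with most of their UMIs in 1 cell. Alb, the gene of serum albumin, stood at 133 CPM in the upper set and 10.9 in the lower set, with 77.0% of its upper set UMIs in 1 cell. Apoa2 (77.1%) and Afp (70.5%) were held by 1 cell in like measure. Once the 48 cells were left out, Alb stood at 11.5 CPM in the upper set against 10.8 in the lower set, and Afp at 11.3 against 10.6. Alb then did not differ between the 2 sets past 1.5-fold.

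Genes lower in the upper set were those of the later erythroid stage. The 4 globin genes, which the rule uses, led them, with Hba-a1 at 41.0 CPM in the upper set and 297 in the lower set. Among the others, Acp5, an acid phosphatase, stood at 22.8 against 82.2 CPM (3.61-fold lower, 3.26 to 4.01), and Mrap, an accessory protein of melanocortin receptors, at 21.4 against 75.4 CPM (3.52-fold lower, 3.17 to 3.92). Hemgn, an erythroid nuclear protein, stood at 64.7 against 209 CPM (3.23-fold lower, 3.04 to 3.43). Cldn13, a claudin of mouse erythroid cells, stood at 82.3 against 222 CPM and Rgcc, which acts on cell division, at 171 against 452 CPM. Leaving out the 48 cells changed each of these 5 levels by less than 5 CPM in the upper set.

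Among early erythroid progenitor genes, 6 of 8 compared lay past 1.5-fold higher and 0 lower, with a median log2 ratio of 0.92. The 6 were Vim, Tmsb10, Myb, Kit, Cdk6 and Ccnd2, the last 2 being a G1 kinase and a D-type cyclin. Cdk6 stood at 155 CPM in the upper set and 91.7 in the lower set (1.69-fold, 1.60 to 1.79), and Ccnd2 at 119 against 71.4 CPM (1.67-fold, 1.56 to 1.78). The median over all 2883 genes was 0.02. Below the filter, Gata2, the GATA factor of early progenitors, stood at 6.76 against 0.578 CPM, and Cd34, which encodes a surface protein of stem cells, at 1.88 against 0.0482 CPM with 15.4% of its UMIs in 1 cell. CS BFUE held 105 CPM of Cd34, far above the upper set.

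Of 21 CFU-E stage genes, 12 lay past 1.5-fold lower and 1 higher (median log2 ratio -0.67). Rhd, the Rh blood group antigen, stood at 132 CPM in the upper set and 290 in the lower set (2.20-fold lower, 2.10 to 2.30). Epor, the erythropoietin receptor, stood at 103 against 151 CPM and Klf1 at 274 against 377 CPM, both under 1.5-fold. The gene that lay higher was Car1, a carbonic anhydrase, at 51 against 23.2 CPM (2.20-fold, 1.97 to 2.45). The paralogue Car2, which speeds the same reaction, stood at 821 against 1409 CPM, so these 2 genes went opposite ways.

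Most heme synthesis genes were lower in the upper set. Of 10 genes compared, 8 lay past 1.5-fold lower and 0 higher (median -0.81). Uros, the enzyme that closes the porphyrin ring, stood at 21.1 CPM in the upper set and 60.7 in the lower set (2.87-fold lower, 2.58 to 3.21). Fech, which inserts the iron, stood at 86.0 against 143 CPM. Abcb10, a mitochondrial transporter, stood at 28.6 against 65.2 CPM. In iron handling 2 of 8 genes lay lower and 0 higher (median -0.45), namely Slc25a37, the mitochondrial iron importer, at 24.2 against 54.2 CPM, and Fth1, the ferritin heavy chain, at 3272 against 5029 CPM.

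The membrane skeleton list had 8 of 12 genes lower and 1 higher (median -0.66). Sptb, the beta spectrin of red cells, stood at 19.0 CPM in the upper set and 62.7 in the lower set (3.30-fold lower, 2.95 to 3.71). The gene that lay higher was Tpm3, a tropomyosin that lines actin filaments, at 106 against 68.8 CPM (1.54-fold, 1.44 to 1.65). Of 6 erythroblast genes, of which Fech also belongs to the heme list, 5 lay lower and 0 higher (median -0.97).

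Most erythroid transcription factors lay within 1.5-fold, though a smaller share of them than the 95.3% of all 2883 genes compared. Of 18 erythroid transcription factors compared, 2 lay past 1.5-fold higher, 1 lower and 15 between (median -0.17). Myb and Cbfa2t3, a corepressor of the ETO family, were the 2 higher, Cbfa2t3 at 88.9 CPM in the upper set and 57.8 in the lower set (1.54-fold, 1.43 to 1.66). Mllt3, a reader of acylated histones, was the 1 lower, at 61.3 against 107 CPM (1.74-fold lower, 1.62 to 1.86). Gata1 stood at 111 against 130 CPM and Tal1, a partner of GATA1, at 83 against 95.4 CPM. Below the filter Mef2c stood at 38.5 against 8.77 CPM.

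Growth and metabolism lists are given beside all 2883 genes compared, of which 95.3% lay within 1.5-fold. A list of this size with no gene past 1.5-fold is near that share and is no finding. None of 29 nucleolus genes lay past 1.5-fold (median 0.18), nor did any of 11 heat shock genes (median 0.13) or 11 unfolded protein response genes (median 0.15). In glycolysis (median 0.23) 1 of 11 lay higher and 1 lower. Pkm, the pyruvate kinase of most cells, stood at 170 CPM in the upper set and 85.4 in the lower set (2.00-fold, 1.88 to 2.11), and Pklr, the isoform gene used by red cells, at 69.7 against 113 CPM (1.62-fold lower, 1.52 to 1.73). Among 21 MYC-linked genes Nme2, a nucleoside diphosphate kinase, lay higher, at 957 against 520 CPM (1.84-fold, 1.80 to 1.88). Of 16 antioxidant genes Prdx2, the main peroxiredoxin of red cells, lay lower, at 1281 against 2052 CPM (1.60-fold, 1.58 to 1.63). Both interferon response genes compared lay higher, Ifitm2 at 130 against 46.8 CPM and Bst2 at 51.3 against 26.7 CPM.

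Cell cycle genes were slightly lower in the upper set. Of 37 S phase genes and 36 G2/M genes, 0 lay past 1.5-fold either way, with median log2 ratios of -0.13 and -0.16. Over all 2883 genes 95.3% lay within 1.5-fold, and the median was 0.02. S phase genes took 0.578% of UMIs in the upper set and 0.636% in the lower set, with 0.506% in CS BFUE and 0.592% in CS CFUE. G2/M genes took 0.952 against 1.07%, with 1.01% in CS BFUE and 1.12% in CS CFUE. In cells thinned to 10000 UMIs the median was 58 S phase UMIs in the upper set (quartiles 47 and 69) and 64 in the lower set (54 and 74). The quartiles of the 2 sets overlapped. Among 5 G1 cyclins and kinases, Cdk6 and Ccnd2 lay higher and 0 lower.

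**Figure D3:**
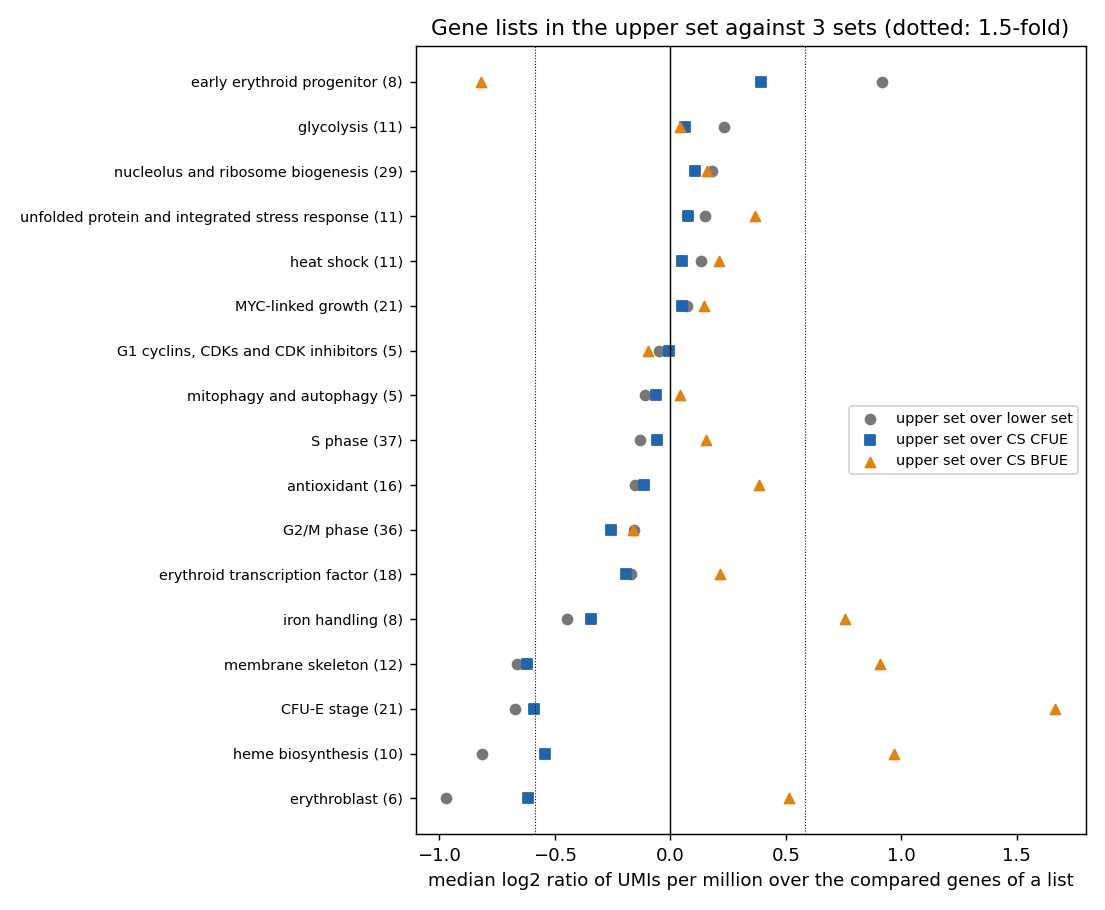
Median log2 ratio of CPM over the compared genes of each list, for the upper set over the lower set, over CS CFUE and over CS BFUE; the number of genes in the first comparison is in parentheses. Early erythroid genes have a median of 0.92 against the lower set and -0.82 against CS BFUE, and the CFU-E stage, heme and membrane lists are negative against both late sets and positive against CS BFUE.

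Against CS CFUE, the late pool of its own library, the upper set differed in fewer genes. Among 2890 genes, 30 lay past 1.5-fold higher in the upper set (1.04%) and 51 lower (1.76%). Vim (5.61-fold, 4.47 to 7.13), Apoe (4.53-fold, 3.98 to 5.19), Cmtm7 (3.84-fold, 3.30 to 4.47), Ass1 (3.34-fold, 2.83 to 3.97) and Fkbp11 (3.27-fold, 2.71 to 3.96) were the highest, with Apoa2 next. Apart from the globins, Sptb (2.87-fold lower, 2.49 to 3.31) and Acp5 (2.50-fold lower, 2.18 to 2.85) were the lowest. Kit stood at a ratio of 1.37 (1.24 to 1.51) and Myb at 1.45 (1.36 to 1.54). Without the 48 cells the counts were 23 and 47, and Alb and Afp, which are among the 30, then lay past 1.5-fold on the lower side. That alternative left cells out of the upper set only. With the same criteria applied to CS CFUE, which left 190 of its 195 cells, the counts were 24 and 44, and Alb stood at 11.5 CPM in the upper set against 14 in CS CFUE and Afp at 11.3 against 13.5, neither past 1.5-fold. The CFU-E stage list had 11 of 21 genes lower and 1 higher (median -0.59). The rule limits globin, Mpo and monocyte genes in the upper set and not in CS CFUE. With CS CFUE held to the same limits, 181 of its 195 cells remained, and 29 genes lay higher and 44 lower.

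Against CS BFUE, the early pool, the differences were larger and the other way round for erythroid genes. Among 3000 genes, 169 lay past 1.5-fold higher in the upper set (5.63%) and 181 lower (6.03%). Cldn13 stood at 82.3 CPM in the upper set and 7.41 in CS BFUE (11.1-fold, 7.31 to 17.8), Rgcc at 171 against 22.2 CPM (7.69-fold, 6.03 to 9.96) and Sphk1, a sphingosine kinase, at 52.8 against 6.74 CPM (7.83-fold, 5.04 to 12.9). Alb, Apoa2 and Afp were among the 6 highest through the cell described above. The ratio was 3.52 for Tfrc (3.02 to 4.12) and 2.97 for Cd24a (2.57 to 3.45). Of 18 CFU-E stage genes 16 lay higher (median 1.67), as did 5 of 7 heme genes (median 0.97) and 4 of 7 iron genes (median 0.76).

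The genes lower than in CS BFUE were led by myeloid and stem cell transcripts. Ctsg, a granule protease, stood at 0.0965 CPM in the upper set and 86.2 in CS BFUE, and Prtn3, another granule protease, at 6.66 against 223 CPM. The rule limits Mpo in the upper set and not in CS BFUE, so Mpo and the granule genes found with it are no finding. Cd34 stood at 1.88 against 105 CPM (56.0-fold lower, 40.1 to 80.3), Adgrl4, an adhesion receptor of endothelial and early blood cells, at 1.25 against 61.6 CPM, and Serpinb1a, an inhibitor of granule proteases, at 2.37 against 65.0 CPM. Mef2c was 4.05-fold (3.61 to 4.55) and Sox4 4.23-fold (3.74 to 4.78) lower. With CS BFUE held to the same limits on globin, Mpo and monocyte genes, 86 of its 122 cells remained and the counts became 118 higher and 114 lower. Ctsg then had 2 UMIs in either set, and Prtn3 stood at 6.66 CPM in the upper set against 33.4 in CS BFUE. Within the limits Cd34 was 14.2-fold lower (9.32 to 22.0), Adgrl4 21.4-fold (13.2 to 35.4), Serpinb1a 4.97-fold (2.94 to 8.21), Mef2c 2.94-fold (2.53 to 3.40) and Sox4 1.68-fold (1.37 to 2.04). Cldn13 was 8.33-fold (5.43 to 13.5) and Rgcc 7.27-fold (5.50 to 9.81) higher there. Scaling to the median ratio of all genes moved the counts to 137 and 217.

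The place of the upper set between the 2 named pools can be given as a share of the way. Between CS BFUE and CS CFUE, 600 genes lay past 1.5-fold, 270 of them higher in CS BFUE and 330 higher in CS CFUE. In the upper set 567 of the 600 levels lay between those of the pools, and 518 were nearer CS CFUE on the log scale. The median gene stood 30.3% of the way from CS CFUE to CS BFUE, and 25.9% without the 48 cells. Those cells were left out of the upper set only. By the same 2 criteria 44 of 122 CS BFUE cells and 5 of 195 CS CFUE cells would leave, but they stayed in. In the lower set the median was -8.93%, and 430 of the 600 levels lay at or beyond the CS CFUE level. With both pools held to the members' limits (86 and 181 cells), 461 genes lay past 1.5-fold between them, and the median stood 37.1% of the way in the upper set and -9.39% in the lower set. Of the 461 levels in the upper set 357 were nearer CS CFUE. The limits and the PC1 cut chose the members, so these positions describe them and test nothing.

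Along PC1, 4 bins of 169 cells each (PC1 medians of -3.91, -1.62, 1.08 and 7.72) lay progressively nearer the early pool. The median gene of the 600 stood 7.77, 17.3, 30.5 and 70.1% of the way in bins 1 to 4, or 7.21, 15.5, 28 and 54.8% without the 48 cells. Here too the named pools kept all their cells. Among 2999 genes, 165 were past 1.5-fold higher in bin 4 than in bin 1 (5.5%) and 123 lower (4.1%). With the 48 cells left out and the bins redrawn over the 628 others, 84 of 2925 genes lay higher and 90 lower, so the count of higher genes changed by over 1.5 times with those cells. Since PC1 orders the cells, this too is a description.

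With all cells the 6 genes with the highest ratio were Gzma, Cd52, Ifitm1, Col3a1, Col1a1 and Col1a2. Of Gzma, a granule protease of lymphocytes, 9 cells held all UMIs, and of Col3a1 7 cells. At least 86.2% of the UMIs of each of the 6 were in 10 cells. With the 48 cells left out the highest were Vim, Gmfg, Ramp1, Apoe, Ptpn18 and Ass1. With only the 37 cells with other markers left out, 94 genes lay higher and 96 lower, and Cd52 and Gzma again had the highest ratios. With the 48 left out Vim stood at 1.60, 2.90, 13.0 and 160 CPM in bins 1 to 4, with the largest step before bin 4. Gmfg, a regulator of actin branching, stood at 2.80, 4.83, 13.4 and 83.8 CPM, and Ramp1, a partner of calcitonin family receptors, at 2.00, 5.41, 13.8 and 53.0 CPM. Apoe stood at 19.8, 39.4, 86.3 and 404 CPM. Ass1 stood at 16.0, 39.0, 78.5 and 158 CPM and Cmtm7 at 23.6, 43.1, 105 and 206 CPM, both higher at every step. Hhex, a homeobox factor of early blood and endothelium, stood at 8.01, 16.4, 32.8 and 54.1 CPM.

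Cldn13 and Rgcc had the lowest ratios with and without the 48 cells. Without them Rgcc stood at 308, 207, 121 and 49.9 CPM in bins 1 to 4 and Cldn13 at 137, 103, 69.9 and 27.4 CPM. Tmem56 and Arhgdig stood at 79.7, 55.7, 43.5 and 24.1 CPM and at 73.1, 59.5, 40.6 and 22.3 CPM. Nxpe2 stood at 136, 120, 95.7 and 44.2 CPM and Rhd at 197, 163, 117 and 67 CPM.

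Kit was highest in bin 3, while Myb was highest in bin 4. Kit stood at 71.7, 97.0, 119 and 108 CPM in bins 1 to 4 without the 48 cells, and at 71.8, 100, 122 and 93.0 CPM with them. Without them its Poisson intervals in bin 3 (109 to 129) and bin 4 (99.0 to 118) overlapped. Myb was higher at each step, at 163, 210, 242 and 347 CPM. Tfrc stood at 254, 229, 211 and 145 CPM and Cd24a at 256, 219, 192 and 102 CPM, lower at each step. Klf1 stood at 328, 305, 276 and 220 CPM and Epor at 122, 126, 105 and 72.5 CPM. Gata1 stood at 122, 119, 103 and 115 CPM, while Gata2 stood at 1.80, 3.29, 4.39 and 17.1 CPM. The 48 cells include the 35 without a UMI of Klf1 and Gata1, and 34 of these lay among the 68 highest on PC1. The criterion thus partly sets the levels of Klf1 and Gata1 in bin 4. Their levels in bins of all cells are not given here, so nothing is read from the range of either gene. The metallothionein genes Mt1 and Mt2, which bind zinc and copper, were highest in bin 2, Mt2 at 732, 808, 720 and 341 CPM.

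**Figure D4:**
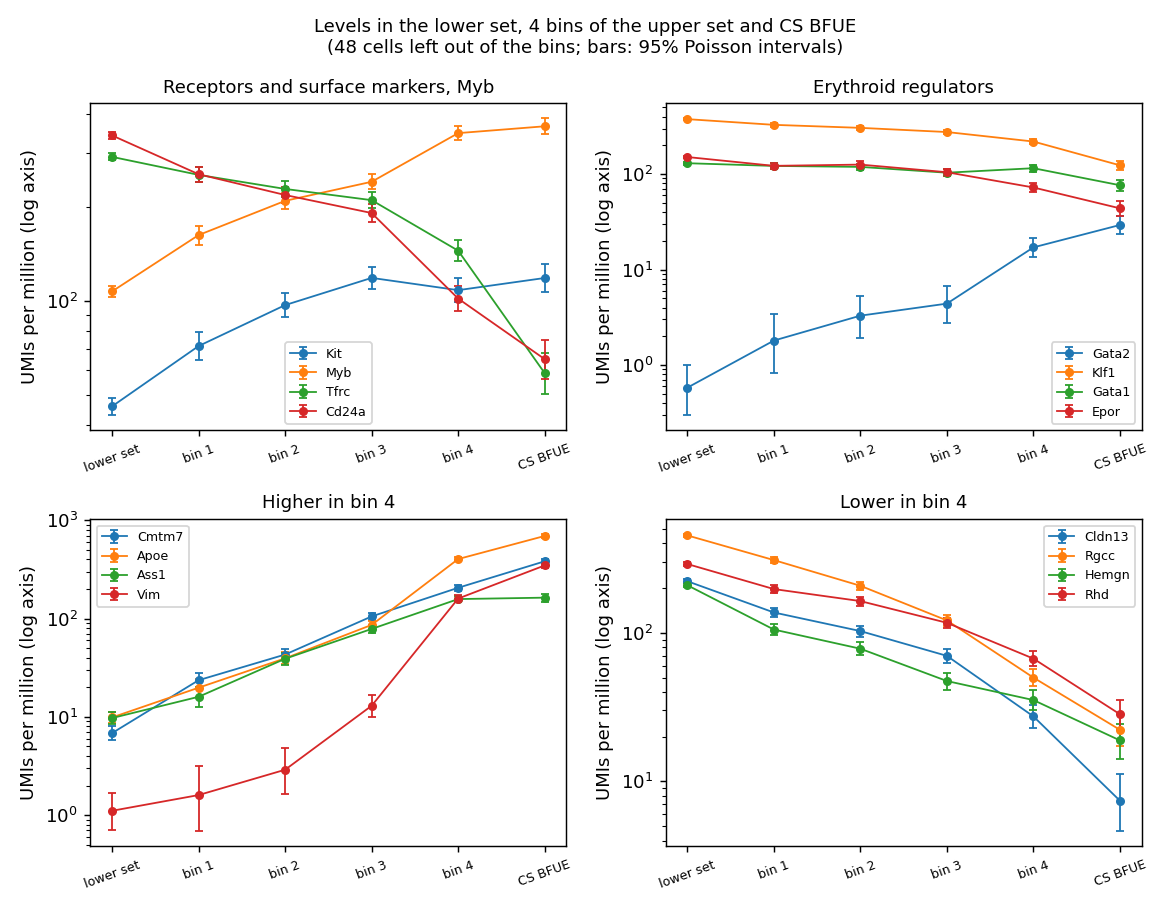
UMIs per 1000000 (CPM) on a log axis in the lower set, the 4 bins of the upper set by PC1, and CS BFUE. Bars are 95% exact Poisson intervals. The bins leave out the 48 cells, chosen in part for lacking UMIs of Klf1 and Gata1, while CS BFUE keeps all 122 cells. Of these 122, 44 meet the criteria by which the 48 were left out. Kit is highest in bin 3 at 119 CPM within the upper set, Myb is highest in bin 4 at 347 CPM, and Vim stands at 13.0 CPM in bin 3 and 160 CPM in bin 4.

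Cells of CS CFUE at or above the same PC1 cut differed from the upper set past 1.5-fold in a small share of genes. These 60 cells passed the same 3 limits. They share the lower bound of PC1 only, with a median of -2.88 against 0.0122 in the upper set. What part of the ratios below follows from that offset was not tested. Among 2917 genes, 16 lay past 1.5-fold higher in the upper set (0.549%) and 18 lower (0.617%). Vim was 7.52-fold (4.80 to 12.5), Tmsb4x 3.04-fold (2.65 to 3.49), Apoe 2.71-fold (2.27 to 3.25), Cmtm7 2.13-fold (1.75 to 2.60), S100a10 2.06-fold (1.74 to 2.46) and Arpc1b, a subunit of the actin-branching complex, 2.02-fold (1.72 to 2.40) higher in the upper set. Dot1l, a histone methyltransferase (1.71-fold, 1.41 to 2.06), Arrb1, a beta arrestin (1.62-fold, 1.39 to 1.90), Prc1, a cytokinesis gene (1.59-fold, 1.44 to 1.76), and Daam1, a formin of actin assembly (1.59-fold, 1.34 to 1.87), were lower, as was Hba-a1. Without the 48 cells 13 genes lay higher and 16 lower, 12 and 14 of them among the first. Cells were left out of the upper set only, and 3 of the 60 pool cells that meet the same criteria stayed in. Tmsb4x then had a ratio of 1.28 (1.11 to 1.48), no longer past 1.5-fold, and Vim at 41.5 CPM no longer met the level filter. Apoe (2.36-fold, 1.98 to 2.84), Cmtm7 (1.96-fold), Arpc1b (1.86-fold) and S100a10 (1.81-fold) still lay past it. The PC1 of the upper set reaches 44.2, and that of the 60 pool cells 5.11. With only the 564 upper set cells up to the latter value, 5 genes lay higher and 12 lower, 5 and 9 of them among the first.

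Ratios were set beside those between the early and late pools of the hashed library, which shares no cells with the upper set. Across 2841 genes compared in both, the log2 ratio of the upper to the lower set and that of FACS BFU-E to FACS CFU-E had a Pearson's r of 0.882 and a Spearman's rank correlation of 0.732. For PE-low over PE-high the values were 0.845 and 0.735 over 2844 genes. Genes are not independent replicates, and PC1 may have been computed on both libraries together. Of 54 genes higher in the upper set, 52 were also past 1.5-fold higher in FACS BFU-E, which is 34.2% of the 152 higher there, and 0 lay on the opposite side. Of 76 genes lower in the upper set, 73 were higher in FACS CFU-E, which is 27.0% of the 270 higher there. For the magnet pools, 106 of all 2844 genes were past 1.5-fold higher in PE-low and 182 in PE-high. There 45 of 54 genes (42.5% of the 106) and 74 of 77 genes (40.7% of the 182) lay on the matching side. Levels of Kit were 97.1 CPM for FACS BFU-E and 42.5 for FACS CFU-E, near the 97.0 and 45.9 CPM of the upper and lower sets, whereas Cd24a stood at 47.3 and 374 CPM there, against 193 and 341 CPM here. Library and isolation cannot be told apart in these levels. Within the CITE-seq library CS BFUE held 119 CPM of Kit, more than the upper set. Albumin was near 0 in the hashed pools, with at most 1.41 CPM of Alb.

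**Figure D5:**
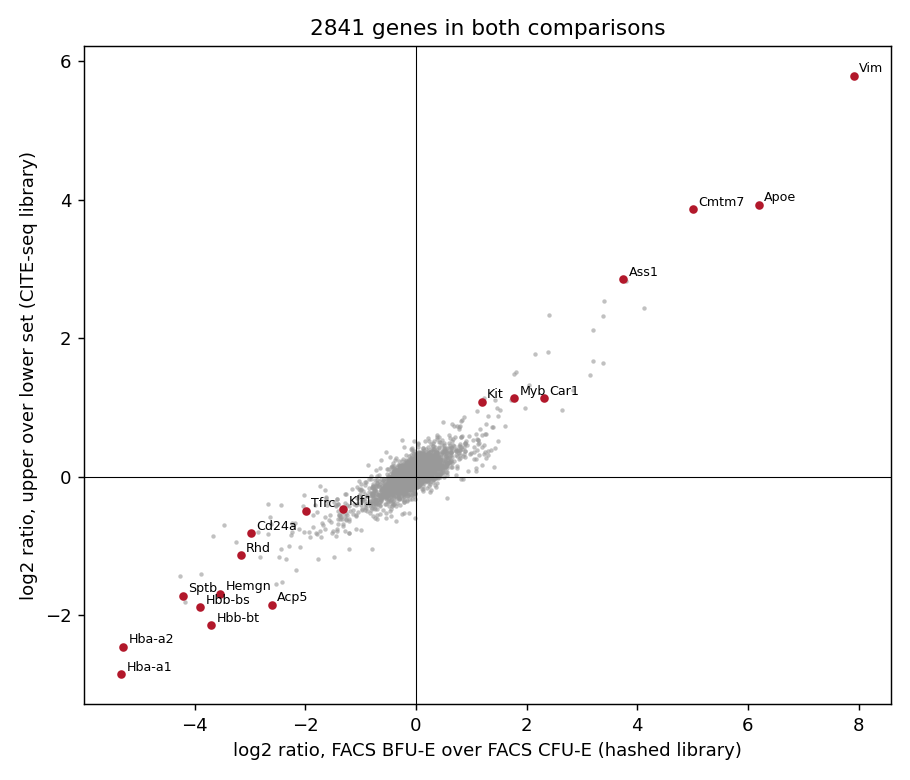
Log2 ratio of the upper to the lower set (vertical) against the log2 ratio of FACS BFU-E to FACS CFU-E (horizontal), 1 point per gene for 2841 genes. Pearson's r was 0.882, with Vim, Apoe and Cmtm7 at the upper right and the globins, Sptb and Hemgn at the lower left.

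Promoters are shown for the genes of the membrane skeleton and transcription factor lists that lay past 1.5-fold higher in the upper set; no heme gene did. They are 300 bases each, 250 before and 50 after the start, from RefSeq on GRCm38.p6, written 5' to 3' on the gene's strand. Capitals mark the letters AGATAA or TGATAA, which GATA factors can bind, or CCNCACCC, which KLF1 can bind, on either strand. Tpm3 lies at chr3:90072401-90072700 on the plus strand, Myb at chr10:21160935-21161234 on the minus strand and Cbfa2t3 at chr8:122699060-122699359 on the minus strand.

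Tpm3: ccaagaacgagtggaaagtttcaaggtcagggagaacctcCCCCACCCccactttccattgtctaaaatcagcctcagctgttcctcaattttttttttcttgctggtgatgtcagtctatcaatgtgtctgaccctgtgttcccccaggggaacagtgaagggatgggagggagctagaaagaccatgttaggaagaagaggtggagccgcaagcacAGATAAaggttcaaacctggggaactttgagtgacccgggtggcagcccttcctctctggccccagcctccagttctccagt
Myb: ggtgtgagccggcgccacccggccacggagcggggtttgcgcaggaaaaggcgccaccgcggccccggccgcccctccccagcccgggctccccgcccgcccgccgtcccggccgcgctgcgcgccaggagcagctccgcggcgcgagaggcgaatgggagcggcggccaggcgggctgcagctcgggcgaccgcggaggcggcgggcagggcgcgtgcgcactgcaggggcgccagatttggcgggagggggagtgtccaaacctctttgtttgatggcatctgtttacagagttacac
Cbfa2t3: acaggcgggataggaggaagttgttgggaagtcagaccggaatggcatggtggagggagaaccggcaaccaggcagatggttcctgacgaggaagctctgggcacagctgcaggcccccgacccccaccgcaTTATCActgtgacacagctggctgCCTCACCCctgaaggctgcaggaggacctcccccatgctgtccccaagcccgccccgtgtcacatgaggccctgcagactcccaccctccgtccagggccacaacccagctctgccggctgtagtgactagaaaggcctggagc

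The Tpm3 and Cbfa2t3 windows held both motifs once each, the GATA letters of Cbfa2t3 on the opposite strand, and the Myb window held neither. Of 27025 promoters of this length, 19.0% held the GATA letters and 16.4% the CACCC letters, so a single match is common. Among genes compared between the 2 sets, 9.47% of 2322 promoters found held the GATA letters, against 18.0% of the 50 found for genes higher in the upper set and 23.6% of the 55 found for genes lower there. The CACCC letters were in 28% of the 50, 21.8% of the 55 and 18.3% of the 2322. A match is a run of letters and not a bound site.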

How the data were processed

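One single-cell table of 3357 cells and 17608 genes was used, from a CITE-seq and a hashed library. Its values are natural logs of 1 plus counts per 10000 UMIs, as deposited by the authors, and 100% of 16419767 values above 0 gave whole UMIs within 0.02, so UMIs were recovered for each cell. The principal components are scores that the authors deposited, called corrected per the file headers, with no statement of the correction in the labels. Cell Ranger 4.0.0, Scanpy and the mm10 build are named per the submitters' processing notes. The library of each cell was taken from its barcode ending. The ending whose cells carry the sorted and magnet pool names was matched to the hashed library, and the other ending was placed by elimination. Gene symbols were found for 17592 IDs and not for 16.

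UMIs were summed over each set of cells, scaled to CPM and compared as ratios with 95% exact conditional binomial intervals (levels: exact Poisson; shares: Clopper-Pearson). Cells are not replicates, each set is 1 sample, and no test was made. The steps were tested on simulated data. A level of 0 was set to a floor of 3 counts for ratios. The members and the 34 gene lists were chosen with earlier results of these data known. Genes were named by rank of ratio, 12 each way against the lower set and 6 each way in the other comparisons, or as members of the lists. A few genes that the rule names are not reported here. No doublet caller was run, and an alternative left out the deepest 10% of cells. Alternatives were another level filter, fold, scaling, weighting, depth and PC1 cut, the limits not applied, and the 48 cells with other markers or no Klf1 and Gata1 left out, in 1 case from both sets. Python 3.11.15, numpy 2.4.6, scipy 1.17.1, pandas 2.3.3 and matplotlib 3.10.9 were used.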

Additional observations from a re-analysis of the deposited data

How the results depend on the processing

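Counts of genes past 1.5-fold are given here as higher and lower in the upper set. The order is against the lower set, CS CFUE, CS BFUE and the CS CFUE cells at or above the same PC1 cut. The last are called cells at the same PC1 here, though they share its lower bound only. With a minimum of 10 CPM they were 329 and 202, 189 and 160, 470 and 892, and 144 and 158. With no level filter they were 4106 and 1745, 2322 and 3457, 1350 and 6672, and 1290 and 5334. At 2-fold they were 28 and 25, 17 and 13, 59 and 95, and 6 and 0. Thinning to 10000 UMIs gave 51 and 87 against CS CFUE and 46 and 91 against its cells at the same PC1, list medians of -0.76 (CFU-E stage) and -0.50 (iron), and shares with a UMI of 54.2% for Kit, 83.2% for Myb, 79.5% for Tfrc and 75.9% for Cd24a.

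With cuts that kept 451 cells at each end of PC1, the counts were 128 and 139 against the lower set, 60 and 93 against CS CFUE, and 35 and 59 at the same PC1. List medians were then 1.28 (early erythroid), -0.98 (CFU-E stage), -1.30 (erythroblast), -1.12 (heme), -0.64 (iron) and -0.94 (membrane skeleton), and the share of a pool above the cut was 12.8% for CS CFUE, 0.599% for FACS CFU-E, 89.9% for PE-low and 16.7% for PE-high. With the limits not applied (1068 cells a set), 195 lay higher and 153 lower than in the lower set, 31 lower than in CS CFUE, and 34 and 3 at the same PC1. The medians were then 1.62 (early erythroid), -0.89 (CFU-E stage), -1.35 (erythroblast), -1.12 (heme), -0.58 (iron), -0.95 (membrane skeleton), -0.25 (S phase) and -0.33 (G2/M), and that of apoptosis turned to 0.10. The shares were 63.6% for CS CFUE, 34.1% for FACS CFU-E and 51.4% for PE-high. At the same PC1, the mean over cells gave 27 and 31, leaving out the deepest cells gave 28 lower, members up to the pool's highest PC1 gave 5 higher, and scaling to the median ratio gave 19 and 13. CS BFUE held to the limits gave 114 lower, and bin 4 against bin 1 gave 84 higher without the 48 cells and 94 without the 37. Each cause was not tested beyond what the setting itself changes. No paired analysis was possible because each set of cells is 1 sample.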
